A study of Arabidopsis thaliana with 9 samples.

Results

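GR1, SAPX, TAPX and GSTU25 are genes for enzymes that use ascorbate or glutathione to handle reactive oxygen and reactive organic compounds. They were taken as the probe sets whose annotation lists exactly 1 gene, that gene being one of these names. The rule found 4 probe sets, 1 for each gene, among 13513 probe sets that list exactly 1 gene and cover 13356 genes. By gene identifier they are AT3G24170 (GR1), AT4G08390 (SAPX), AT1G77490 (TAPX) and AT1G17180 (GSTU25). The symbol GR1 is also carried by an unrelated gamma-response gene, AT3G52115. The probe set was picked by symbol, and its gene identifier is AT3G24170, the glutathione reductase. The rule used names only, and no measured value, but the genes were chosen with earlier results of these data known.

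All samples were total RNA from a suspension culture of Arabidopsis thaliana cells, grown at 24 °C in continuous light and hybridised to Affymetrix ATH1 arrays. The high light cells were exposed for 30 min to 1800 microE/m2/s, the dark cells were kept without light for 1 h, and the control cells remained at their growth light of 50 microE/m2/s. There were 3 arrays in each group, numbered as biological replicates 1 to 3, and the labels give no genotype. Whether the replicates were separate cultures is not given, so the p-values below describe only how these samples scatter, which may be technical.

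Ascorbate peroxidases reduce hydrogen peroxide to water with electrons from ascorbate. In chloroplasts they do so close to photosystem I, where illuminated thylakoids form hydrogen peroxide. The oxidised ascorbate is reduced again by monodehydroascorbate and dehydroascorbate reductases, of which dehydroascorbate reductase draws on glutathione, and glutathione reductase returns oxidised glutathione to its reduced form with NADPH. Glutathione transferases join glutathione to reactive or toxic compounds, and members of the plant-specific tau class are known for induction by chemicals and stress.

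As for the arrays as a whole, the first principal component held 47.4% of the variance, and on it high light replicate 1 (score 4.32) lay apart from high light replicates 2 and 3 (41.5 and 45.4). As a sign of RNA quality, the log2 signal at the 3 prime end of the actin, GAPDH and ubiquitin transcripts exceeded that at the 5 prime end by 0.72 to 0.99 on the arrays numbered 1, by 0.96 to 0.99 on those numbered 2 and by 1.06 to 1.29 on those numbered 3. Of the marker genes for green cells, 2 of 5 had a probe set with 1 gene. LHCB4.2, an antenna protein gene, had log2 signals of 6.11 to 7.80 and PSAN, a photosystem I subunit gene, of 7.87 to 8.91, which is above the median of every array (5.55 to 5.67). LHCB4.2 averaged 6.30 ± 0.11 in high light, 6.39 ± 0.25 in the dark and 7.47 ± 0.32 in control, and PSAN 7.97 ± 0.10, 8.16 ± 0.21 and 8.68 ± 0.21 in the same groups (SD, n = 3 each). In high light against control LHCB4.2 passed (limma adjusted p = 0.0309) and PSAN did not (0.0835), whereas both passed once same-numbered arrays were paired by a replicate block (limma adjusted p 0.0193 and 0.0420). Both were also lower in dark against control, with log2 changes of -1.08 and -0.53 (unadjusted limma p 0.00022 and 0.0041), and neither passed adjustment. Between high light and dark the log2 changes were -0.09 and -0.19 (limma adjusted p 0.921 and 0.816). The part of these markers in the results below was not tested. In bulk RNA, fewer cells of a type and less RNA per cell cannot be told apart. The root epidermis marker EXP7 lay between 4.08 and 4.53, near the lower quartile of the arrays (4.05 to 4.12). Markers of dividing cells (0 of 5), seed and embryo (0 of 2) and xylem (0 of 2) had no probe set with 1 gene.

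None of the 4 genes differed between the light conditions beyond the spread of the arrays. Limma called 0 of 4 in high light against control, where it called 0.501% of all 22746 tested probe sets at an adjusted p under 0.05. For darkness against the control light it called 0 of 4 genes and 0% of all probe sets. Between high light and darkness it called 0 of 4 genes and 0.897% of all probe sets. At an unadjusted p under 0.05 the count was 0 of 4 in each comparison, beside 8.79% of all probe sets for high light and 2.77% for darkness, both against control, and 8.01% between high light and darkness. In each comparison the arrays of both groups overlapped for all 4 genes, whereas they did not overlap for 11.2% (high light and control), 6.34% (dark and control) and 10.3% (high light and dark) of all probe sets. The moderated F test over the 3 groups, which called 0.633% of probe sets, gave the 4 genes adjusted p-values of 0.958 to 0.997.

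SAPX encodes the ascorbate peroxidase of the chloroplast stroma, which is also imported into mitochondria. Its log2 signals were 8.98, 9.0 and 8.49 on high light replicates 1 to 3. They were 9.30, 9.18 and 8.38 on the dark arrays and 9.0, 8.66 and 8.56 on the control arrays. The array numbered 3 was the lowest of its group in all 3 conditions, and the dark arrays held both the highest and the lowest of the 9 values. The group means ran in the order dark (8.95 ± 0.50), high light (8.82 ± 0.29) and control (8.74 ± 0.23; SD, n = 3 each), and no neighbours in that order differed beyond their spread. High light was 1.06-fold of control (log2 change 0.08, SE 0.25, limma adjusted p = 0.967), with a 95% interval of 0.711-fold to 1.57-fold. Dark was 1.16-fold of control (log2 change 0.21, SE 0.25, limma adjusted p = 1), and high light was 0.915-fold of dark (log2 change -0.13, SE 0.25, limma adjusted p = 0.924). With the replicate number as a block the SE was 0.13. The blocked intervals were 0.854-fold to 1.31-fold for high light and 0.932-fold to 1.43-fold for dark, both against control. Between high light and dark the blocked interval was 0.739-fold to 1.13-fold.

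TAPX encodes the ascorbate peroxidase bound to the thylakoid membrane, where the light reactions take place. It was the steadiest of the 4 genes, with an SD of 0.10 on the log2 scale over the 9 arrays. The log2 signals were 6.37, 6.35 and 6.27 in high light, 6.23, 6.31 and 6.31 in the dark and 6.15, 6.35 and 6.51 in control. The control arrays enclosed the high light and dark arrays at both ends. The means were nearly the same, at 6.33 ± 0.05 in high light, 6.28 ± 0.05 in the dark and 6.34 ± 0.18 in control (SD, n = 3 each). High light was 0.998-fold of control with a 95% interval of 0.858-fold to 1.16-fold (limma adjusted p = 0.996). Dark was 0.963-fold of control (0.828-fold to 1.12-fold, limma adjusted p = 1) and high light was 1.04-fold of dark (0.891-fold to 1.20-fold, limma adjusted p = 0.921).

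SAPX and TAPX carry out the same reaction in the stroma and at the thylakoid membrane, so it was asked whether their changes differed. The per-array difference TAPX minus SAPX, on the log2 scale, was -2.49 ± 0.24 in high light, -2.67 ± 0.53 in the dark and -2.41 ± 0.40 in control (SD, n = 3 each). The difference is used only for its change between groups, since signals of different probe sets are not comparable as levels. Exact two-sided permutation tests gave p = 0.9 for high light against control, p = 0.5 for dark against control and p = 0.6 for high light against dark, where 3 against 3 arrays cannot go below 0.1. A difference between the changes of SAPX and TAPX was thus not shown, and these tests could not have reached a p under 0.05.

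GR1 encodes the glutathione reductase of the cytosol and peroxisomes. Its log2 signals were 9.55, 9.46 and 9.36 on the high light arrays, 9.73, 9.49 and 9.55 on the dark arrays and 9.73, 9.51 and 9.55 on the control arrays. High light replicates 2 and 3 were the lowest of the 9 arrays, while high light replicate 1 lay among the dark and control arrays. The means were 9.46 ± 0.10 in high light, 9.59 ± 0.12 in the dark and 9.60 ± 0.12 in control (SD, n = 3 each), with the dark and control means 0.01 apart. High light was 0.908-fold of control (log2 change -0.14, SE 0.10, limma adjusted p = 0.792), with a 95% interval of 0.779-fold to 1.06-fold. The log2 change was -0.073 without control replicate 1 and -0.090 without high light replicate 3. It was -0.188 without high light replicate 1 and -0.181 without control replicate 2. Within the same replicate number the high light array was below the control array in 3 of 3 pairs, by log2 differences of -0.17, -0.06 and -0.19. It was also below the dark array in 3 of 3 pairs (-0.17, -0.03 and -0.19). On the group means, high light was 0.913-fold of dark (log2 change -0.13, limma adjusted p = 0.814). This change was -0.062 without dark replicate 1 and -0.083 without high light replicate 3. It was -0.181 without dark replicate 2 and -0.181 without high light replicate 1. Both comparisons use the same high light arrays. With the replicate number as a block, the high light interval against control narrowed to 0.811-fold to 1.02-fold, with a limma adjusted p of 0.445, where the block fit called 1.33% of all probe sets.

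GSTU25 encodes a tau class glutathione transferase. Its log2 signals were 5.40, 4.16 and 4.03 on high light replicates 1 to 3, 5.31, 4.19 and 4.02 on the dark arrays and 5.20, 3.81 and 4.195 on the control arrays. The array numbered 1 was the highest in every condition. The remaining 6 arrays lay between 3.81 and 4.195, and 3 of the 9 arrays were below their own lower quartile of all probe sets, so the gene was near the floor of the scale except on replicate 1. RMA signals were not tested against background here. The means were 4.53 ± 0.76 in high light, 4.51 ± 0.70 in the dark and 4.40 ± 0.72 in control (SD, n = 3 each). High light was 1.10-fold of control (log2 change 0.13, SE 0.50, limma adjusted p = 0.974), and the 95% interval of 0.497-fold to 2.42-fold was the widest of the 4 genes. With the replicate number as a block the SE was 0.12, against 0.50 without it, and the interval was 0.907-fold to 1.32-fold (limma adjusted p = 0.696). Signals near the floor can be compressed, so this interval describes the RMA signal and does not bound the change of the transcript. Dark was 1.08-fold of control (limma adjusted p = 1) and high light was 1.02-fold of dark (limma adjusted p = 0.993).

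**Figure D1:**
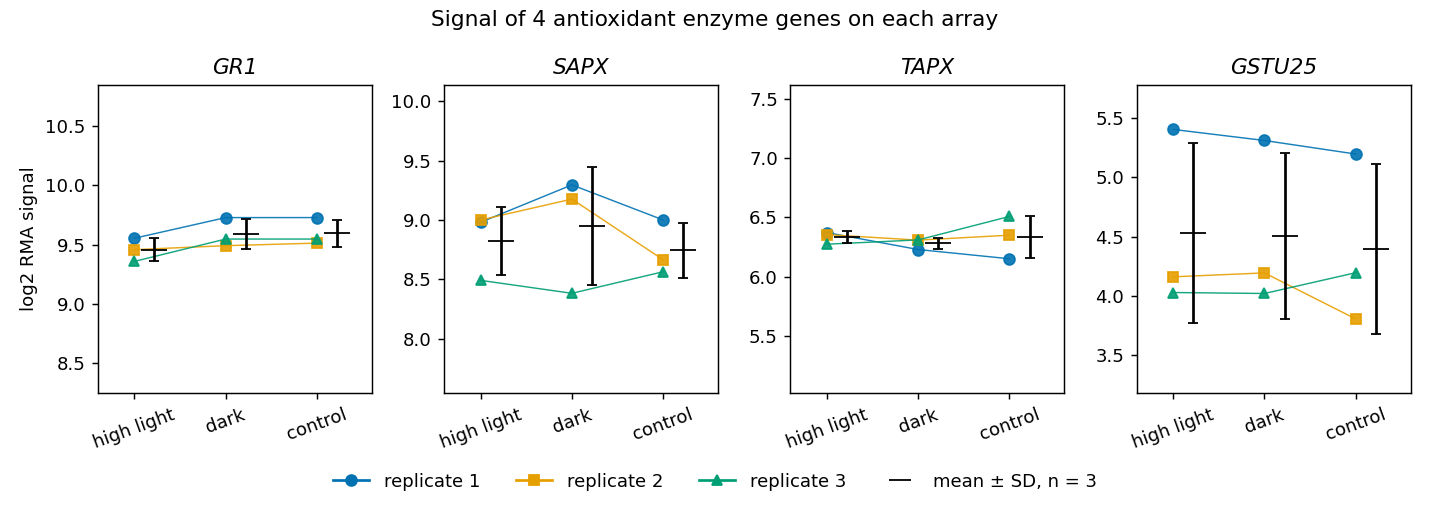
Log2 RMA signal of GR1, SAPX, TAPX and GSTU25 on each of the 9 arrays, in high light, dark and control. Points of the same replicate number share a symbol and are joined by a line, black bars are the mean ± SD of 3 arrays, and each panel spans the same number of log2 units. GSTU25 is above 5 on the 3 arrays numbered 1 and at or below 4.195 on the other 6, and SAPX is lowest on the arrays numbered 3.

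**Figure D2:**
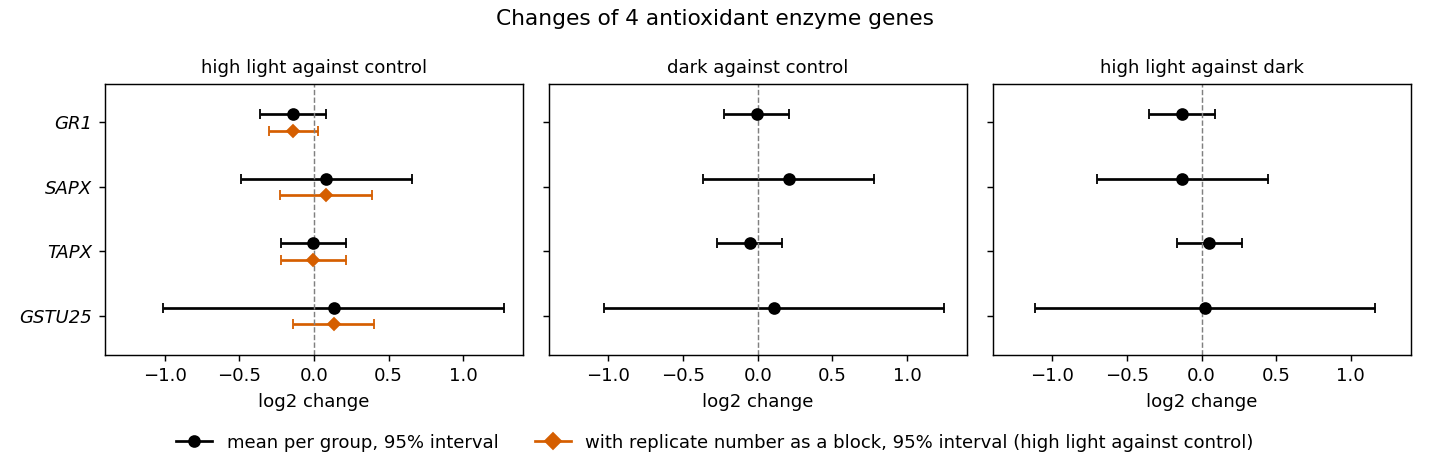
Log2 change of the 4 genes in the 3 comparisons, with 95% intervals from limma (black circles) and, for high light against control, with the replicate number as a block (orange diamonds). Every interval includes 0, and that of GSTU25 shrinks to 0.907-fold to 1.32-fold with the block. The GSTU25 signals lay near the floor except on replicate 1.

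Exact permutation tests without a variance model gave p = 0.3 for GR1, p = 0.9 for SAPX, p = 1 for TAPX and p = 0.7 for GSTU25 in high light against control (two-sided, n = 3 against 3, smallest possible p = 0.1). Exact permutation of the F statistic over all 9 arrays gave p = 0.336 for GR1, 0.761 for SAPX, 0.779 for TAPX and 0.868 for GSTU25. The tests of 3 against 3 arrays could not have passed, so of these only the F permutation bears on the count, and it passed for 0 of 4 genes. It shuffled arrays without regard to the replicate number, which held 95.8% of the variation of GSTU25 and 74.2% of that of SAPX. For these genes it had little room to pass. The moderated F test with the replicate block gave adjusted p-values of 0.557 (GR1), 0.726 (SAPX), 0.941 (TAPX) and 0.819 (GSTU25).

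The replicate number, not the light condition, went with most of the variation of 3 of the 4 genes. For GSTU25, 95.8% of the sum of squares over the 9 arrays lay between replicate numbers and 0.934% between light conditions. Only 22 of 22746 tested probe sets (0.0967%) had a higher share between replicate numbers. Averaged over the conditions, GSTU25 was 5.30 on the arrays numbered 1, 4.05 on those numbered 2 and 4.08 on those numbered 3. With the arrays numbered 2 and 3 near the floor and not tested against background, no fold is given. For SAPX the shares were 74.2% between replicate numbers and 7.98% between conditions, and the arrays numbered 3 stood at 0.687-fold of the others. For GR1 the shares were 59.9% and 32.5%. For TAPX they were 26.6% and 6.99%, and 66.4% was left over. The medians over all tested probe sets were 32.7% between replicate numbers, 22% between conditions and 35.4% left over. These shares are a description of 9 arrays, made after the values were seen. The RNA quality index also differed by replicate number, as given above. With the index as a covariate, an alternative chosen after seeing the data, the log2 change of GSTU25 was 0.32 in high light and 0.34 in the dark against control, and that of SAPX in the dark was 0.36 (SE 0.13, limma adjusted p = 0.936). Its part in the shares of variation was not tested.

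**Figure D3:**
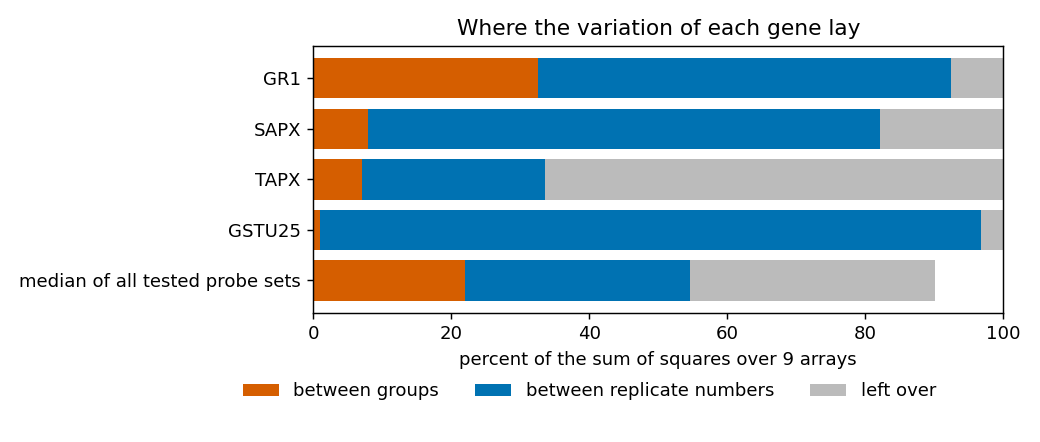
Percent of the sum of squares over 9 arrays that lay between the 3 light conditions (orange), between the 3 replicate numbers (blue) and in neither (grey), for each gene and as separate medians over all tested probe sets. GSTU25 has 95.8% between replicate numbers, while TAPX has 66.4% left over.

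The 4 genes did not move as 1 group over the arrays. As a description over 9 arrays that share groups and replicate numbers, the Pearson correlation was 0.73 between GR1 and GSTU25, 0.64 between SAPX and GSTU25 and 0.49 between GR1 and SAPX (Spearman 0.65, 0.53 and 0.23). TAPX had negative Pearson correlations of -0.44 to GR1, -0.37 to SAPX and -0.41 to GSTU25, with Spearman values nearer to none (-0.23, -0.30 and -0.05). Whether TAPX ran opposite to the others was not tested. The chloroplast pair SAPX and TAPX was thus not the most alike pair.

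Among all 1-gene probe sets, those most like each gene over the 9 arrays were named by the highest Pearson correlation, as a description. For GR1 they were petD (0.97), the plastid gene for subunit IV of the cytochrome b6f complex, AT4G16800 (0.96) and AT5G16870 (0.96). The petD signals averaged 5.46 in high light, 6.15 in the dark and 6.23 in control, and ran over a wider range (4.87 to 6.79) than those of GR1 (9.36 to 9.73). For SAPX they were AT5G43100 (0.96), AT1G77030 (0.95) and AT5G19050 (0.95), all with their lowest mean on the arrays numbered 3. For GSTU25 they were AT3G22850 (0.96), AT1G22180 (0.96) and AT2G28790 (0.95), all with their highest mean on the arrays numbered 1. For TAPX they were AT3G46770 (0.96), APL4 (0.96) and AT4G15810 (0.95), whose signals lay between 3.55 and 4.66 with ranges of 0.42 or less. They are the highest of 13513 correlations for each gene and were not tested.

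The rest of the ascorbate and glutathione system was followed through lists of 99 genes, of which 27 had a probe set with 1 gene, including the 4 above. Limma called 0 of 27 in each comparison, and 0 of 27 in high light against control with the replicate block. At an unadjusted p under 0.05 high light against control had 1 higher and 1 lower gene, where 3.87% of all probe sets were higher and 4.92% lower. In the dark 1 was higher and 0 were lower than in control, beside 0.994% and 1.77% of all probe sets. Between high light and dark the count was 0 in either direction, beside 4.48% higher and 3.52% lower. With the replicate block, high light against control had 1 higher gene (AER) and 3 lower genes (PRXIIF, GSTU16 and GSTU18) at an unadjusted p under 0.05, beside 5.1% and 8.84% of all probe sets. The median log2 change of the 27 genes in high light against control was 0.00, beside -0.03 over all tested probe sets. It was 0.02 beside -0.00 for the dark against control, and -0.02 beside -0.04 for high light against the dark. With 27 of 99 genes measured, these counts describe the measured genes and not the pathway as a whole. Some of the 27 genes had signals near the floor, as given below.

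Among the recycling enzymes 3 of 10 genes were measured and 0 of 3 passed. GR2, the plastid and mitochondrial glutathione reductase, averaged 8.44 ± 0.04 in high light, 8.54 ± 0.05 in the dark and 8.50 ± 0.03 in control (SD, n = 3 each), a log2 change of -0.07 in high light against control (SE 0.07, limma adjusted p = 0.870). MDAR2, a monodehydroascorbate reductase, had a log2 change of 0.10 (SE 0.14, limma adjusted p = 0.919), and 82.3% of its variation lay between replicate numbers. Among the genes of ascorbate and glutathione synthesis 3 of 8 were measured, all of them in the ascorbate route, and 0 of 3 passed. VTC4, a galactose-1-phosphate phosphatase gene, GME, which makes GDP-galactose from GDP-mannose, and GLDH, which completes ascorbate synthesis in mitochondria, had log2 changes of -0.13 (SE 0.07), -0.15 (SE 0.13) and -0.13 (SE 0.11) in high light against control (limma adjusted p 0.717 to 0.856).

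Of the thiol peroxidases, which reduce peroxides through thioredoxin or glutathione, 3 of 15 were measured and 0 of 3 passed. The mitochondrial peroxiredoxin gene PRXIIF was the 1 gene lower at an unadjusted p under 0.05 without the block, with 9.62, 9.34 and 9.21 in high light, 9.68, 9.58 and 9.58 in the dark and 9.76, 9.60 and 9.58 in control. High light replicates 2 and 3 were its lowest arrays, as they were for GR1. Its log2 change in high light against control was -0.26 (SE 0.11, limma adjusted p = 0.553). The chloroplast peroxiredoxin genes 2CPA and PRXIIE had log2 changes of 0.05 (SE 0.08) and 0.05 (SE 0.12). For superoxide dismutases and catalases 0 of 10 genes had a probe set with 1 gene, and for the ascorbate peroxidases SAPX and TAPX were the 2 of 8 measured.

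GSTU25 was 1 of 11 measured tau class glutathione transferases among 28 listed, and 0 of 11 passed in any comparison. Their log2 changes in high light against control ran between -0.42 and 0.21 with a median of 0.00. Several of these genes lay near the floor, so the median rests in part on weak signals. GSTU21 was below the lower quartile on 9 of 9 arrays, GSTU20 on 8, GSTU23 on 6, GSTU16 on 4 and GSTU15 on 2. GSTU18, GSTU22, GSTU27 and GSTU28 were below it on 0 arrays. GSTU18 had the value -0.42 (SE 0.22, limma adjusted p = 0.677), GSTU16 -0.22 (SE 0.13, limma adjusted p = 0.747), GSTU15 -0.09 (SE 0.08, limma adjusted p = 0.854) and GSTU22 0.21 (SE 0.09, limma adjusted p = 0.602). GSTU26, the gene numbered next to GSTU25 and chosen after its values were seen, stayed between 3.45 and 3.68 on all 9 arrays, below the lower quartile of each. GSTU27, also chosen after its values were seen, was highest on the arrays numbered 3, with 5.41, 5.87 and 6.17 in high light, 5.28, 5.16 and 6.37 in the dark and 5.44, 5.18 and 7.46 in control. The arrays on which GSTU27 was high were therefore not those on which GSTU25 was high. Of the phi class, 2 of 13 were measured and 0 of 2 passed, with log2 changes of 0.13 for GSTF13 (SE 0.09) and -0.06 for GSTF4 (SE 0.07). GSTF13 was below the lower quartile on 5 of 9 arrays and GSTF4 on 9 of 9.

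The electrophile response list, which holds GSTU25, had 4 of 9 genes measured, and 0 of 4 passed. AER, an NADPH-dependent reductase of reactive alkenals, had log2 signals of 9.33, 9.51 and 9.31 in high light, 9.15, 9.56 and 9.38 in the dark and 8.52, 8.77 and 9.23 in control. The high light arrays did not overlap the control arrays, as was so for 11.2% of all probe sets, and 1 dark array lay below control replicate 3. AER had a log2 change of 0.54 in high light against control (SE 0.18, limma adjusted p = 0.389) and of 0.52 in dark against control (SE 0.18, limma adjusted p = 1), and both values use the same control arrays. The glycosyltransferase genes UGT73B4 and UGT73B5 had log2 changes of 0.28 (SE 0.15) and -0.01 (SE 0.15) in high light against control. Each of these glycosyltransferase genes was below the lower quartile on 7 of 9 arrays, near the floor.

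**Figure D4:**
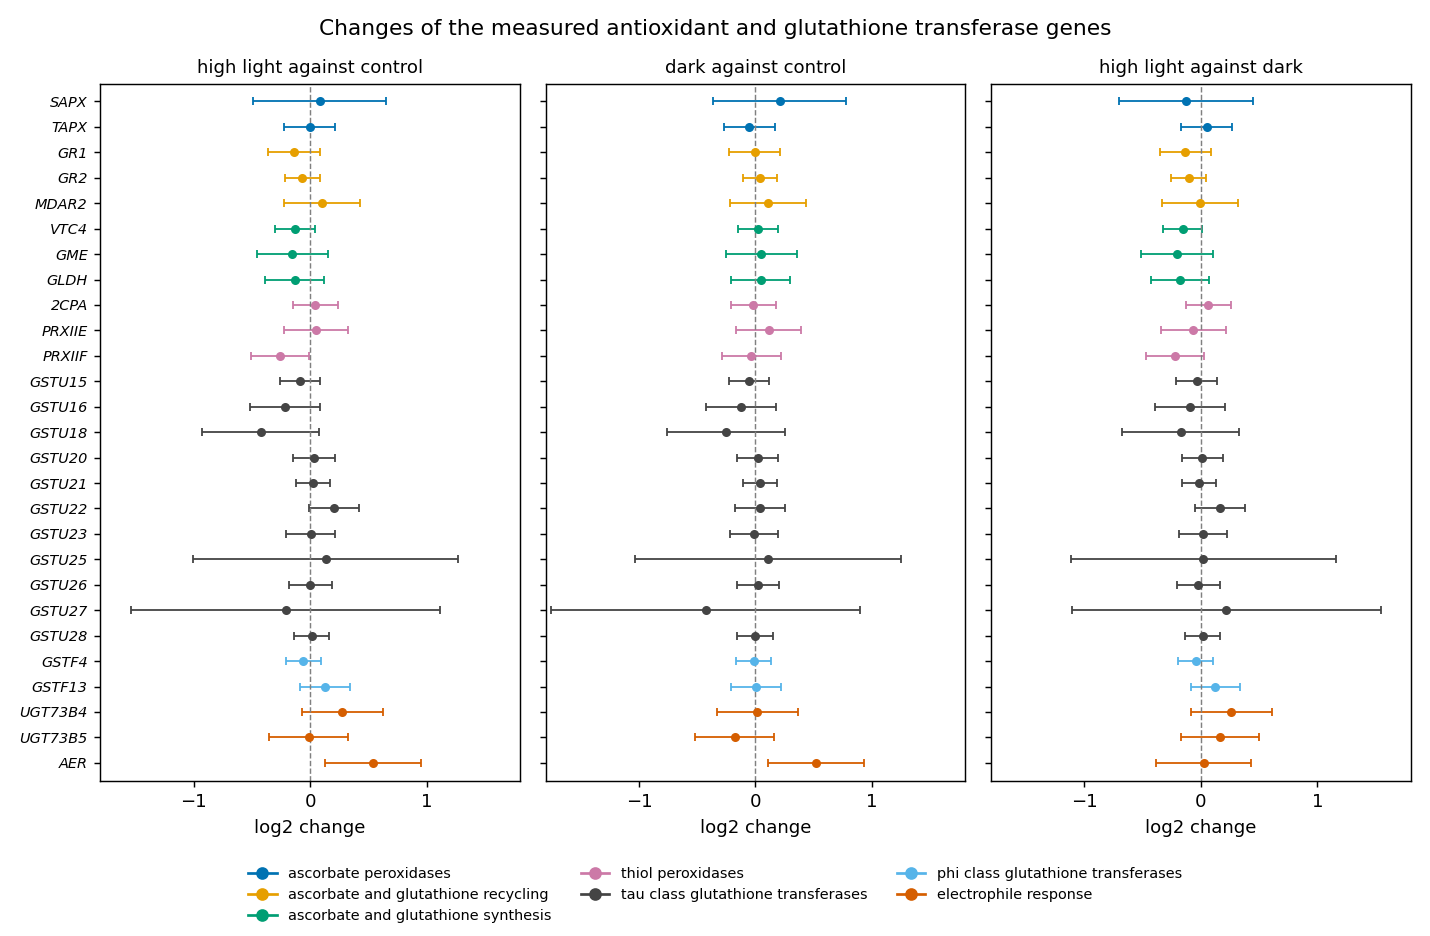
Log2 change with its 95% interval from limma for the 27 measured genes of the lists, in the 3 comparisons, coloured by list. The intervals of GSTU25 and GSTU27 are the widest, and AER lies above 0 against control in both treatments without passing the adjusted threshold.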

How the data were processed

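The deposited values are log2 expression per probe set, which the authors computed by RMA using affy; the submitters' processing notes name both and give no version or settings. The base of the logarithm was taken from the range of the values. RMA corrects background, normalises quantiles between arrays and summarises probes, which can compress signals near the floor. Of 22810 probe sets, 64 Affymetrix controls were set aside and 22746 tested. The annotation gives 13513 probe sets a single gene, 503 several genes and 8730 none, and 13436 of the 13513 matched the gene table. Depth has no meaning here, and 3 arrays per group limit the precision.

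Limma 3.58.1 in R 4.3.3 fitted a mean per group over all 9 arrays (6 residual and 2.55 prior degrees of freedom), with Benjamini-Hochberg adjustment over all tested probe sets and a threshold of 0.05. This fit was tested on simulated data with independent noise on each array, a setting that lacks the shared deviations described below. Exact tests used scipy 1.17.1. The genes and lists were chosen with earlier results of these data known. Named are all called members of a list, the up to 4 with the smallest F-test p, and the 3 probe sets most correlated with each of the 4 genes. Replicate numbers come from the labels. Arrays of the same number shared deviations in all 3 pairs of high light and control (correlations of deviations 0.261 to 0.515), so the block is given for that comparison. For dark and control the correlations were 0.632, 0.012 and 0.430, and for high light and dark 0.414, -0.034 and 0.485. In these comparisons blocked intervals are given only for SAPX and GSTU25, whose shares between replicate numbers were the largest of the 4 genes. That choice was made after the values were seen. Alternatives covered centring, quantile normalisation, filters, trend with robust estimation, array weights, the block, only both groups' arrays, shared probes, the mean over a gene's probe sets, each array left out and a stricter threshold. An RNA quality covariate and the shares of variation were chosen after seeing the data.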

Additional observations from a re-analysis of the deposited data

How the results depend on the processing

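In 0 alternatives did limma call any of GR1, SAPX, TAPX or GSTU25, and the lowest adjusted p of a change was 0.445. The lowest unadjusted limma p over all settings was 0.0253, for SAPX in dark against control. The sign of several of these small changes depended on the setting, and the cause was not tested. GR1 in dark against control was 0.0040 after median centring, 0.0072 after quantile normalisation and 0.029 with the RNA quality covariate. TAPX in high light against control was 0.028 after median centring, 0.037 after quantile normalisation and 0.015 with array weights. GSTU25 in high light against dark was -0.13 with array weights, -0.0072 after quantile normalisation and -0.024 with the covariate. GSTU25 had no value among means above the median, since its mean is lower. With each array left out, the log2 change against control ran over -0.30 to 0.53 for GSTU25 in high light, -0.29 to 0.51 for GSTU25 in the dark, -0.0083 to 0.25 for SAPX in high light, -0.10 to 0.083 for TAPX in high light, -0.15 to 0.032 for TAPX in the dark and -0.077 to 0.059 for GR1 in the dark. High light against dark ran over -0.41 to 0.42 for GSTU25 and -0.41 to 0.045 for SAPX, and the TAPX minus SAPX change over -0.31 to 0.091 against control and -0.021 to 0.48 against dark. GSTU25 was negative against control without high light replicate 1 (-0.30) or control replicate 2 (-0.16) and positive without control replicate 1 (0.53). SAPX in dark against control ran over 0.036 (without dark replicate 1) to 0.49 (without dark replicate 3, limma adjusted p = 1), GR1 in high light against control over -0.19 to -0.073, and GR1 in high light against dark over -0.18 to -0.062. Among list medians, the tau class in high light against control was -0.088 above the lower quartile of means and -0.32 above the median, and -0.34 in the dark above the median. The electrophile list was then AER alone (0.54 and 0.52). The thiol peroxidases in high light against control ran over -0.10 to 0.10 with each array left out. Calls over all probe sets in high light against control were 114, and 59 at the stricter threshold, 387 with array weights, 302 with the replicate block and 43 to 575 with 1 array left out. In high light against dark they were 204, and 84, 642, 430 and 76 to 675 under these settings and 131 with only the 6 arrays of both groups. In dark against control they were 0, and 5 with array weights. The lowest counts were without high light replicate 2, and the highest without high light replicate 1. The replicate block changed no call of the 4 genes. For dark with control arrays, and likewise for high light with dark arrays, 2 of 3 pairs deviated together and 4 of 6 arrays correlated best with their own number. The number of arrays limits the precision of all these values.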

Other observations

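GR1 had exactly the same deposited value on control replicate 3 and dark replicate 3. Exactly equal values occurred in 1.85% to 4.76% of all probe sets between any pair of the 9 arrays, so 1 such tie is within what these tables hold for every pair of arrays.

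On the scale of means, GSTU25 ranged over 0.13 log2 units between light conditions and over 1.25 between replicate numbers, and SAPX over 0.21 and 0.61. For GR1 the values were 0.14 and 0.19, and for TAPX 0.05 and 0.11.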
